A study of Mus musculus with 6 samples.

Results

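The vascular endothelial growth factor (VEGF) ligands and receptors were 9 of the 31053 genes listed for each library, chosen by symbol: the ligand genes Vegfa, Vegfb, Vegfc and Pgf, the receptor tyrosine kinase genes Kdr, Flt1 and Flt4, and the coreceptor genes Nrp1 and Nrp2. Single-cell RNA-seq libraries (droplet-based, 10x Genomics, 3′ ends) had been made from mouse retinas at postnatal day 17 (P17). The OIR group (oxygen-induced retinopathy, n = 3 samples) had breathed 75% oxygen from P7 to P12 and then room air for 5 days, and the Ctrl group (n = 3 samples) had not been exposed. Each sample pooled the retinas of 2 mice, so p-values measure the spread between these pools, and no other treatment, strain or genotype is given by the labels. The question was which retinal cells held the mRNA of each ligand, which held that of each receptor, and whether either differed between OIR and Ctrl.

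VEGF ligands are secreted dimers that bind receptor tyrosine kinases on the surface of endothelial cells, and neuropilins bind some of the same ligands as coreceptors. In the retina, vessels are known to grow in front of cells that lack oxygen, since hypoxia raises Vegfa transcription through hypoxia-inducible factors. Müller glia, which span the whole retina, and astrocytes are known sources of VEGFA, and OIR is a mouse model in which vessels first retreat under high oxygen and later grow out of the retina.

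The libraries held 15788524 to 42606878 unique molecular identifiers (UMIs, 1 per captured mRNA molecule), and 38569 cells passed the limits on genes and mitochondrial counts, 19028 from OIR and 19541 from Ctrl. Although the labels call the material retinal endothelial cells, rods were the largest class (24533 cells), and the cells were of many retinal classes. Clusters were named from marker genes, always as "-like" cells: rod, cone, rod bipolar, cone bipolar, amacrine, Müller, microglia, retinal pigment epithelium (RPE), vascular endothelial cell (VEC), vascular smooth muscle cell and pericyte (VSMC), and astrocyte. These 11 classes took 37027 cells. Horizontal and ganglion cells had marker lists too, but no cluster was named for either, so the orders and shares below do not give them. VEC-like cells numbered 25, 3 and 2 in the OIR samples against 147, 4 and 16 in the Ctrl samples. In this class, shares of UMIs or cells pooled over the samples therefore rest mostly on Ctrl replicate 1. Mean levels weigh each sample alike, so the samples with few VEC-like cells count in them as much as Ctrl replicate 1. OIR replicate 3 had 1 Pecam1 UMI, 1 Egfl7 UMI and no Cldn5 UMI in its 2 VEC-like cells, so its label as endothelium has little behind it. Ctrl replicates 2 and 3 were high in Xist and the other 4 samples in Y-linked genes, so sex is unevenly spread over the groups. A term for sex therefore takes up Ctrl replicates 2 and 3, and its fit sets the OIR samples against Ctrl replicate 1 alone. Such a fit cannot part sex from the spread between Ctrl samples, and every result with that term below carries this limit.

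Levels are given in CPM, the UMIs of the gene per 1000000 UMIs summed over a class in 1 sample. Counting was at the 3′ end, so the splice forms of Vegfa and the soluble form of Flt1 cannot be told apart from the rest of the gene. Since the classes were made from the same cells, their levels are described by order and range, with no test between classes. Wherever the OIR and Ctrl samples of a gene are said not to overlap, the count of all genes that separated likewise was not made. Such a separation therefore does not set the gene apart from genes in general. The map of mean levels over the 6 samples shows 3 groupings: Vegfa with Kdr and Flt1 in Müller-like cells, most receptors in VEC-like cells, and Pgf with Nrp1 in VSMC-like cells.

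**Figure D1:**
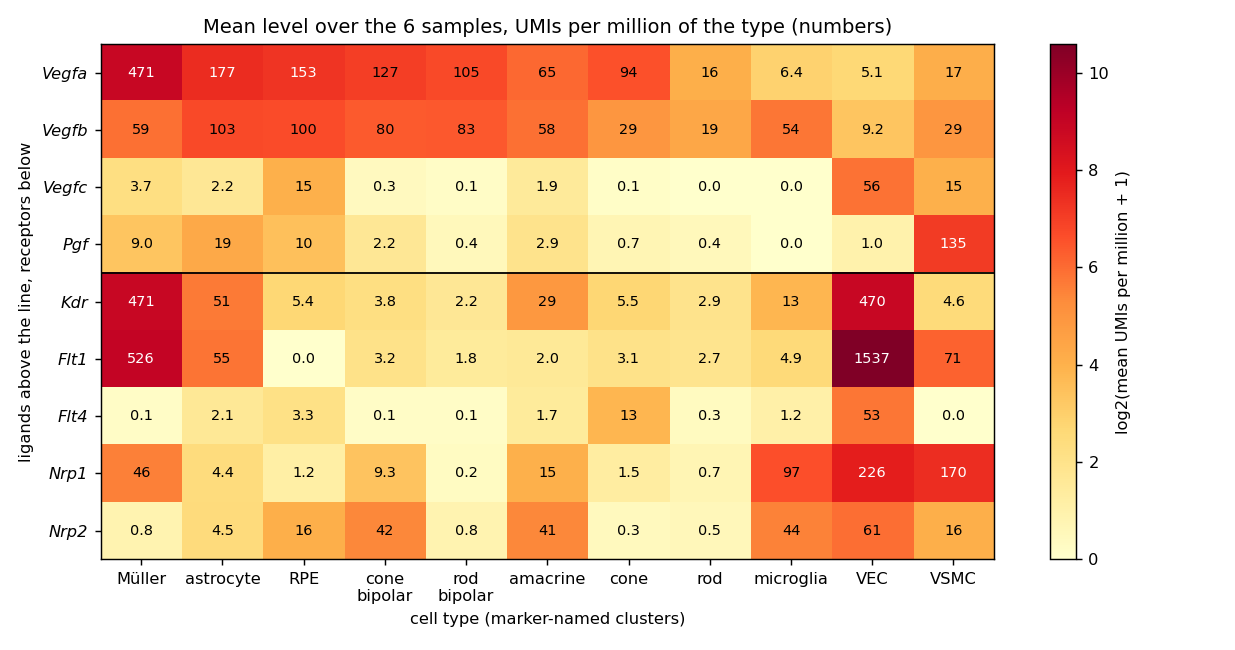
Mean level of each gene (rows, ligands above the line and receptors below it) in each cell class (columns), as the mean CPM over the 6 samples. The colour follows log2 of that mean plus 1, and the printed values run from 0 to 1537 (Flt1 in VEC-like cells), with Vegfa, Kdr and Flt1 at 471, 471 and 526 in Müller-like cells.

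Vegfa (GRCm38, chr17:46016993-46032369, minus strand), whose product is the main hypoxia-driven VEGF, was highest in Müller-like cells. Its level there was 800.1, 528 and 443 CPM in OIR replicates 1 to 3 and 254, 340.2 and 458 CPM in Ctrl replicates 1 to 3. Müller-like cells stood above astrocyte-like cells, the next class, in 6 of 6 samples, although the ranges of the classes over samples overlapped (means 471 and 177 CPM). Below them came RPE-like (153 CPM), cone bipolar-like (127), rod bipolar-like (105), cone-like (93.9) and amacrine-like cells (64.9), each overlapping its neighbour. The step from amacrine-like to VSMC-like cells was the only one without overlap, by a narrow gap. The lowest amacrine-like sample had 46.7 CPM and the highest VSMC-like sample 46.0 CPM, the latter on few cells. VSMC-like, rod-like, microglia-like and VEC-like cells had means of 16.5, 15.8, 6.39 and 5.15 CPM. Müller-like cells held 65.0% of all Vegfa UMIs, cone bipolar-like cells 13.3% and rod bipolar-like cells 8.5%. After thinning each cell to 1000 UMIs, 26.7% of Müller-like cells had a Vegfa UMI against 1.55% of rod-like cells. Without thinning it was 54.9% against 3.13% (median depths 5508 and 1812 UMIs per cell). Rod-like values are given here as a rough gauge of free RNA, but whether they are free RNA or transcripts of rods was not tested.

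The stretches of 250 bases before the transcription start are shown for the 3 members of which Müller-like cells held the largest share of UMIs, Vegfa, Kdr and Flt1, as RefSeq gives them for GRCm38.p6, read 5′ to 3′ along the strand of transcription. Capitals mark GGGCGG or its reverse complement CCGCCC, the core of the GC box. The windows are chr17:46032378-46032627 (minus strand) for Vegfa, chr5:75978456-75978705 (minus strand) for Kdr and chr5:147726012-147726261 (minus strand) for Flt1.
Vegfa: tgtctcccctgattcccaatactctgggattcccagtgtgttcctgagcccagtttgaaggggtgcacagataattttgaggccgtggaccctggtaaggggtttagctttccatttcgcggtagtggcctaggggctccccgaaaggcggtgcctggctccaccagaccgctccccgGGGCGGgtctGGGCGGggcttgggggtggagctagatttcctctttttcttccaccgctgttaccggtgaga
Kdr: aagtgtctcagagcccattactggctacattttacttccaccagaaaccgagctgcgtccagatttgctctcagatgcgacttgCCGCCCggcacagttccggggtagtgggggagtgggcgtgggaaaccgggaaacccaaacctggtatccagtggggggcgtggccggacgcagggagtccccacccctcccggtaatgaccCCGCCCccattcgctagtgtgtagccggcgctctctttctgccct
Flt1: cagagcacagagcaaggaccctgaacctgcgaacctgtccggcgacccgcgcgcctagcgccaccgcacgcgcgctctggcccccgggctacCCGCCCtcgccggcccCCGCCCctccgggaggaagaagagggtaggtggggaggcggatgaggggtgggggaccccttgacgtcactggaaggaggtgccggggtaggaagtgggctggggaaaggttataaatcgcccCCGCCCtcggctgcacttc
Vegfa carried the motif 72 and 62 bases before its start, Kdr 166 and 45 bases and Flt1 158, 142 and 19 bases before theirs. It was found in 10 of the 11 RefSeq windows of the 9 members, at least 1 for each member, against 32.7% of 32851 windows of the same length. ACGTG, a form of the core that hypoxia-inducible factors recognise, was found on either strand in 1 member window, that of an internal Vegfa start, against 16.6% of all windows. The other form, GCGTG, was not searched for, so its presence in these windows is not given. A match is a string of letters in this window and not a shown binding site.

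In Müller-like cells the OIR and Ctrl ranges of Vegfa overlapped, because Ctrl replicate 3 (458 CPM) lay above OIR replicate 3 (443 CPM). The means were 590.2 ± 187 and 351 ± 102 CPM (SD, n = 3 each), and the log2 fold change was 0.70 (SE 0.27, edgeR quasi-likelihood adjusted p = 0.237). OIR replicate 1 had by far the highest value, and without it the log2 fold change was 0.37 with an edgeR adjusted p of 0.563. With sex (by Xist) added to the model, the log2 fold change was 1.18. That fit set OIR against Ctrl replicate 1 alone, the lowest Ctrl sample. No member passed the test of OIR against Ctrl in Müller-like cells (0 of 9 called by edgeR and 0 by DESeq2), beside 2.74% of all 11652 genes tested by edgeR and 3.59% by DESeq2. At an unadjusted p under 0.05 there were 2 of 9 members by either, beside 1815 (edgeR) and 1341 (DESeq2) of the 11652 genes. Without the filter on low counts Vegfa was called (edgeR adjusted p = 0.0458), as were 3.61% of genes. Simulated 2-fold changes were recovered in 60% of genes and 4-fold changes in 97.5% at this sample size in Müller-like sums.

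Müller-like cells came from 2 clusters of unequal depth, and Vegfa was described in each because their shares of the Müller-like cells differed between samples. The deep cluster (2191 cells, median 9216 UMIs) had 893, 676 and 582 CPM in OIR and 285, 412 and 526 CPM in Ctrl. The shallow cluster (1788 cells, median 1782 UMIs) had 211, 113 and 78.3 CPM in OIR and 61.6, 56.4 and 70.4 CPM in Ctrl. Within each cluster all 3 OIR samples of Vegfa lay above all 3 Ctrl samples. The split was made after the data were seen, and how many of all genes separated likewise was not counted. The log2 fold changes were 0.75 (edgeR adjusted p = 0.192) in the deep cluster, where 2.00% of genes were called, and 1.10 (edgeR adjusted p = 0.0848) in the shallow cluster, where 2.35% were called. Summed rod markers, at 1058 to 4347 CPM in the deep and 12978 to 31409 CPM in the shallow cluster, were higher in the shallow one, and in it lower in OIR (12978 to 13934) than in Ctrl (21069 to 31409). The part of these rod transcripts in the shallow-cluster values was not tested.

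**Figure D2:**
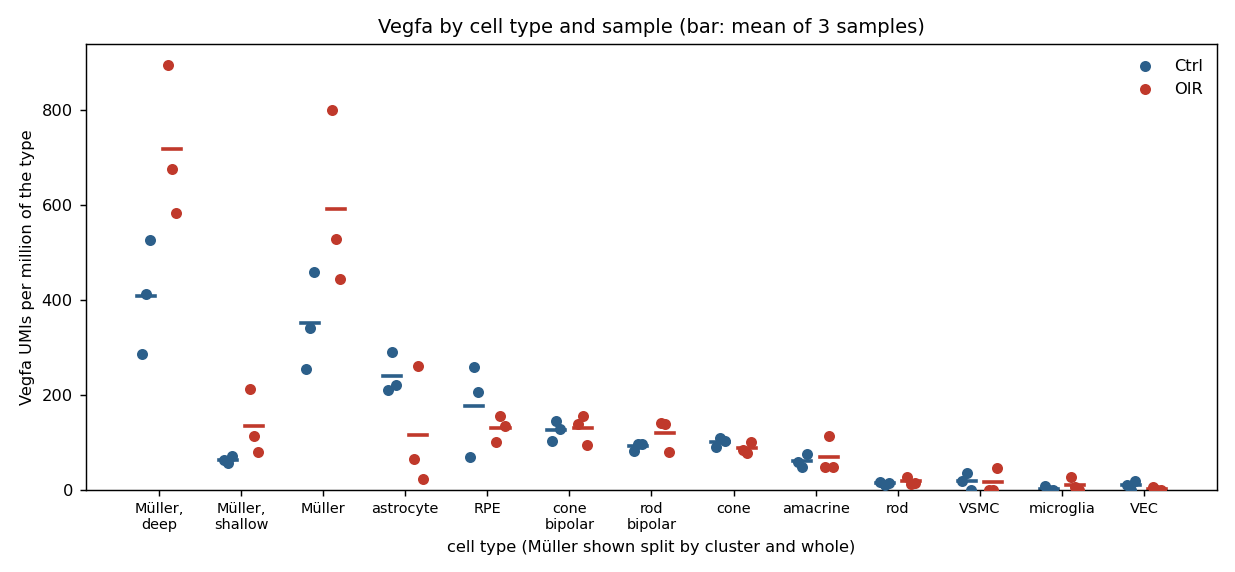
Vegfa in each sample (points, Ctrl blue and OIR red, CPM of the class on a linear axis) by cell class, with bars at the mean of 3 samples and Müller-like cells shown whole and as their deep and shallow clusters. The OIR points lie above the Ctrl points in both Müller-like clusters, while the whole Müller-like class overlaps at 443 and 458.

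In the neurons no difference in Vegfa was called. In rod bipolar-like cells it was 139, 138 and 79.0 CPM in OIR and 80.5, 96.9 and 95.2 CPM in Ctrl, and the groups overlapped (log2 fold change 0.39, SE 0.19, edgeR adjusted p = 0.382). In cone bipolar-like cells it was 139, 155 and 94.1 CPM in OIR and 101.5, 145 and 128 CPM in Ctrl, again with overlap. In cone-like cells it was 83.8, 78.1 and 100.4 CPM in OIR and 90.2, 109 and 102 CPM in Ctrl, the lowest 2 values being OIR samples (log2 fold change -0.24, SE 0.15, edgeR adjusted p = 0.604). The OIR effect on Vegfa was lower in cone-like than in Müller-like cells by a log2 difference of -1.01 (SE 0.22, edgeR adjusted p = 0.0122), the 1 member of 9 called in this test of the difference, beside 1.56% of 12082 genes. Without OIR replicate 1 the difference was -0.74 (edgeR adjusted p = 0.0796) and without Ctrl replicate 1 it was -0.82 (edgeR adjusted p = 0.0537). With the deep Müller-like cluster alone it was -1.08 (edgeR adjusted p = 0.0660), so these 3 settings lost the call. The same difference was -0.71 for cone bipolar-like cells (edgeR adjusted p = 0.157), -0.42 for rod bipolar-like cells (0.420) and -0.45 for rod-like cells (0.526). In the 7 classes other than cone-like cells 0 of 9 members differed from Müller-like cells by this test, beside 1.46% of genes for rod-like, 1.21% for rod bipolar-like, 0.845% for cone bipolar-like, 0.696% for amacrine-like, 0.556% for microglia-like, 0.04% for RPE-like and 0.717% for VEC-like cells.

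In RPE-like and astrocyte-like cells the mean of Vegfa was above that of Vegfb, on few cells, although Vegfb was the higher of the pair in OIR replicate 2 of the RPE-like and in OIR replicates 1 and 3 of the astrocyte-like sums. RPE-like cells (242 cells) had 99.7, 155 and 133 CPM in OIR and 68.6, 257 and 205 CPM in Ctrl. Astrocyte-like cells (57 cells) had 64.3, 261 and 21.6 CPM in OIR and 209, 289 and 221 CPM in Ctrl. The groups overlapped in both classes, and OIR replicate 3 had 1 Vegfa UMI in 3 astrocyte-like cells. In all kept cells together Vegfa was 259, 132 and 97.3 CPM in OIR and 102, 89.3 and 84.1 CPM in Ctrl, with overlap (log2 fold change 0.73, SE 0.35, edgeR adjusted p = 0.690), and in such a sum more Müller-like cells and more Vegfa per cell cannot be told apart.

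Vegfb (chr19:6982473-6987651, minus strand), a ligand of Flt1 linked to fatty acid handling and cell survival, was spread over most classes. Its mean was 103 CPM in astrocyte-like, 100.03 in RPE-like, 82.9 in rod bipolar-like, 79.7 in cone bipolar-like and 59.1 CPM in Müller-like cells, and 9.15 CPM in VEC-like cells, with overlap at every step of the order. Cone bipolar-like cells held 26.6% of its UMIs, Müller-like cells 22.04%, rod bipolar-like cells 19.4% and rod-like cells 15.9%. In rod bipolar-like cells it was 92.7, 101.4 and 98.9 CPM in OIR and 63.0, 74.6 and 66.8 CPM in Ctrl. All OIR samples lay above all Ctrl samples, but the log2 fold change of 0.49 (SE 0.13) did not pass the test (edgeR adjusted p = 0.0785, unadjusted p = 0.00283). With the replicate numbers as a block it did (edgeR adjusted p = 0.0364), as did 5.69% of genes. In rod bipolar-like sums 0 of 9 members were called by edgeR and by DESeq2, beside 2.40% and 2.71% of genes. An unadjusted p under 0.05 was reached by 1 of 9 members in either, beside 1354 (edgeR) and 986 (DESeq2) of 9340 genes.

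In cone bipolar-like and rod-like cells, too, every OIR sample had more Vegfb than every Ctrl sample. These classes come from the same libraries as the rod bipolar-like cells, so they are not independent repeats. How many of all genes separated likewise was not counted. Cone bipolar-like cells had 92.5, 82.9 and 93.6 CPM in OIR and 68.4, 75.3 and 65.2 CPM in Ctrl (log2 fold change 0.34, SE 0.14, edgeR adjusted p = 0.369). Rod-like cells had 20.3, 21.8 and 23.9 CPM in OIR and 18.8, 15.1 and 16.9 CPM in Ctrl (log2 fold change 0.22, SE 0.14, edgeR adjusted p = 0.476). Neither passed the test, where 0.822% of genes were called in cone bipolar-like and 2.52% in rod-like sums. In Müller-like cells Vegfb was 59.8, 51.0 and 70.2 CPM in OIR and 48.4, 60.2 and 65.2 CPM in Ctrl, with overlap and a log2 fold change of 0.01 (SE 0.17).

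Vegfc (chr8:54077606-54187096, plus strand), the lymphangiogenic ligand that binds Flt4 and Kdr, was scarce: Müller-like cells held 94 of its 172 UMIs, VEC-like cells 40 and RPE-like cells 16. The VEC-like UMIs numbered 4, 3 and 0 in OIR and 33, 0 and 0 in Ctrl, which gave the highest mean of any class (56.1 CPM) with a range from 0 to 288 CPM. The 288 CPM came from the 3 UMIs of OIR replicate 2. Only 1 UMI was found in rod-like cells. In Müller-like cells Vegfc was 3.01, 1.43 and 2.10 CPM in OIR and 6.79, 2.67 and 6.40 CPM in Ctrl. Ctrl replicate 2 lay below OIR replicate 1, so the groups overlapped, and the log2 fold change was -1.26 (SE 0.43, edgeR adjusted p = 0.187, unadjusted p = 0.0156).

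Pgf (chr12:85166635-85177790, minus strand), the placental growth factor gene whose product binds Flt1 alone among the kinases, was highest in VSMC-like cells. Its level there was 73.6, 0 and 161 CPM in OIR and 160.2, 249.6 and 168 CPM in Ctrl, on 2 to 63 cells per sample. The groups overlapped, narrowly, only through OIR replicate 3 (161 CPM) and Ctrl replicate 1 (160.2 CPM). The 6 VSMC-like cells of OIR replicate 3 have a less certain label, as given for Nrp1 below. Without them the OIR values lay below all Ctrl values, untested. The second-best marker list of the VSMC-like cluster was that of fibroblasts, and Col3a1, Col1a1 and Col1a2 were among its leading genes. Fibroblasts may therefore be among the VSMC-like cells, and their part in the Pgf level was not tested. After thinning to 1000 UMIs 12.9% of VSMC-like cells had a Pgf UMI against 0.0338% of rod-like cells. Müller-like cells held 53.9% of Pgf UMIs and VSMC-like cells 22.2%. The Müller-like level of Pgf was 21.1, 6.59 and 7.80 CPM in OIR and 7.13, 8.001 and 3.49 CPM in Ctrl, so that only OIR replicate 1 lay above every Ctrl sample. No Pgf or Vegfc UMI was found in the 244 microglia-like cells, where 3 UMIs in a sample would have been 3.90 to 21.0 CPM.

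Kdr (chr5:75932827-75978458, minus strand), the gene of VEGF receptor 2, which carries most of the endothelial response to VEGFA, had nearly equal means in Müller-like and VEC-like cells (471 and 470.2 CPM), with a far wider spread in the latter. Müller-like cells had 491, 471 and 563 CPM in OIR and 329, 508 and 466 CPM in Ctrl. VEC-like cells had 485, 96.0 and 0 CPM in OIR and 375, 938 and 928 CPM in Ctrl, from 100, 1, 0, 423, 54 and 54 UMIs. Müller-like Kdr varied little and overlapped between the groups (log2 fold change 0.16, SE 0.18, edgeR adjusted p = 0.741). The 0 rests on the 2 doubtful cells of OIR replicate 3 and the 96.0 CPM on 1 UMI. With Cldn5-positive VEC-like cells only, the VEC-like mean was 591 CPM, above the Müller-like mean. OIR replicate 3 had no such cell, so its 0 is left out of that mean, while the Müller-like mean covers all 6 samples. VEC-like Kdr ranged from 0 to 938 CPM and also overlapped (log2 fold change -1.26, SE 0.64, edgeR adjusted p = 0.581). The next class, astrocyte-like cells, had a mean of 51.1 CPM, 9 of its 16 UMIs being from 2 cells of Ctrl replicate 2. After thinning, 31.6% of Müller-like cells, 30.8% of VEC-like cells and 0.314% of rod-like cells had a Kdr UMI, and without thinning 67.3%, 71.1% and 0.620%. In rod-like cells Kdr was 4.23, 2.41 and 4.99 CPM in OIR and 2.00, 1.88 and 1.81 CPM in Ctrl, with no overlap (log2 fold change 0.88, SE 0.36, edgeR adjusted p = 0.243). In rod-like sums 0 of 9 members were called by edgeR and DESeq2, beside 2.52% and 5.29% of genes. An unadjusted p under 0.05 was reached by 2 members in edgeR and 0 in DESeq2, beside 2046 and 1792 of 11474 genes. Rod-like cells serve here as the gauge of free RNA, and the part of free RNA in their Kdr value was not tested.

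Flt1 (chr5:147561604-147726011, minus strand), the gene of VEGF receptor 1, a strong binder of VEGFA, VEGFB and PGF that signals weakly and in soluble form traps VEGFA, was highest in VEC-like cells. It was 950.5, 2687 and 0 CPM there in OIR and 2179, 2031 and 1375 CPM in Ctrl, from 196, 28, 0, 2458, 117 and 80 UMIs, and in the sum of OIR replicate 3 as few as 3 UMIs would have been 1452 CPM. In Müller-like cells it was 496, 709 and 446 CPM in OIR and 653, 445 and 409 CPM in Ctrl. The groups overlapped in both classes (log2 fold change -0.50, SE 0.69, edgeR adjusted p = 0.989 in VEC-like and 0.06, SE 0.21, 0.937 in Müller-like cells). Müller-like cells stood apart from the next class, VSMC-like cells, in 6 of 6 samples with no overlap of ranges (means 526 and 71.3 CPM). After thinning, 73.1% of VEC-like, 34.0% of Müller-like and 0.233% of rod-like cells had an Flt1 UMI. In the deep Müller-like cluster 96.6% of cells had an Flt1 UMI and 90.1% a Kdr UMI before thinning. No Flt1 UMI was found in RPE-like cells, where 3 UMIs in a sample would have been 13.5 to 102 CPM.

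Endothelial markers were counted in the same Müller-like cells. Of 10 endothelial markers, 9 had a UMI in Müller-like cells and Erg had none. Cldn5, the marker by which the study defined VECs, had 36 UMIs, Cdh5 7, Tie1 6 and Sox17 6 in 3979 Müller-like cells, against 8192, 751, 371 and 763 UMIs in 197 VEC-like cells. The summed markers were 42.1 to 55.3 CPM in OIR and 8.44 to 22.8 CPM in Ctrl Müller-like sums, against 968 to 14875 and 11650 to 17974 CPM in VEC-like sums. In Müller-like cells the higher OIR value was mostly Egfl7, a secreted vessel factor named here after its values were seen, which had 408, 135 and 166 UMIs in OIR and 36, 16 and 15 UMIs in Ctrl. Egfl7 was the 1 marker of the 10 that passed the filter on low counts in Müller-like sums, so the other 9 were not tested, and it rose (51.2, 38.7 and 49.8 against 6.11, 6.10 and 8.73 CPM, log2 fold change 2.74, SE 0.22, edgeR adjusted p = 7.39e-04).

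**Figure D3:**
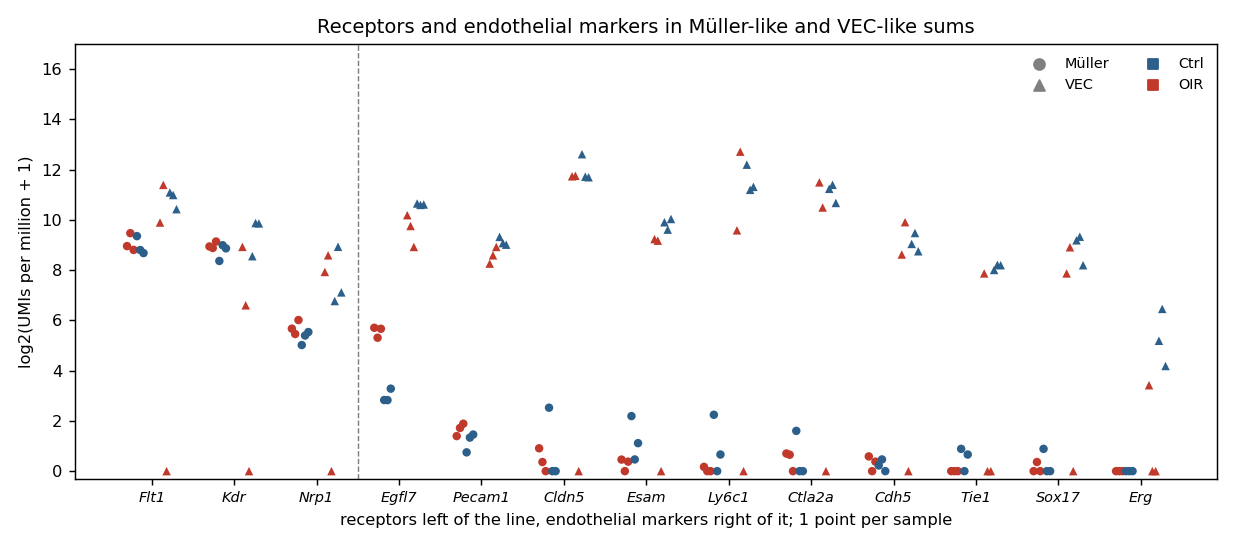
Flt1, Kdr and Nrp1 (left of the dashed line) and 10 endothelial markers (right) in Müller-like (circles) and VEC-like sums (triangles), 1 point per sample, OIR red and Ctrl blue, as log2 of CPM plus 1. The Müller-like sums lie close together for Kdr, and the VEC-like sums run from 0 to above them, while every Müller-like marker value lies below 6 and, apart from Egfl7, below 3.

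Flt4 (chr11:49609263-49652739, plus strand), the gene of VEGF receptor 3, known from lymphatic and sprouting endothelium, was highest in VEC-like cells, at 77.6, 96.0 and 0 CPM in OIR and 59.4, 0 and 85.9 CPM in Ctrl (16, 1, 0, 67, 0 and 5 UMIs). The second class was the cone-like cells, with 11.1, 7.49 and 16.6 CPM in OIR and 15.1, 13.6 and 16.2 CPM in Ctrl. Every sample had Flt4 UMIs in cone-like cells, the groups overlapped (log2 fold change -0.42, SE 0.29, edgeR adjusted p = 0.671), and these cells held 57.5% of all Flt4 UMIs. Rod-like cells had 0.107 to 0.622 CPM of Flt4, and after thinning 1.33% of cone-like against 0.0342% of rod-like cells had a UMI of it. Müller-like cells had 4 Flt4 UMIs in all. In cone-like sums 0 of 9 members were called by edgeR and DESeq2, beside 1.29% and 0.993% of genes. An unadjusted p under 0.05 was reached by 0 members in either, beside 1062 (edgeR) and 682 (DESeq2) of 9364 genes.

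Nrp1 (chr8:128358604-128503363, plus strand), a coreceptor of VEGFA and of class 3 semaphorins, was highest in the cells of the vessel wall and in microglia-like cells. VEC-like cells had 242, 384 and 0 CPM in OIR and 108, 486 and 137 CPM in Ctrl. VSMC-like cells had 159, 122 and 0 CPM in OIR and 191, 285 and 261 CPM in Ctrl, on 86 cells and untested. The VSMC-like groups did not overlap, with 13, 4 and 0 UMIs in OIR and 98, 16 and 14 in Ctrl. The 6 VSMC-like cells of OIR replicate 3 stood out in genes of the endothelial marker list, in opposite directions. They had 27 UMIs of Ly6c1, against 0 to 2 in each other sample, and 1 UMI of Esam, which the other samples had at 5 to 207. Of the rest of the list they had 4 UMIs of Ctla2a, 2 of Cldn5, 1 of Egfl7 and none of the others. Their label is less certain, and what they were was not tested. Without these cells the groups still did not overlap. In microglia-like cells Nrp1 was 106.5, 111 and 177 CPM in OIR and 44.2, 56.0 and 84.4 CPM in Ctrl. All 3 OIR samples lay above all 3 Ctrl samples, and the log2 fold change of 1.17 (SE 0.32) did not pass over all genes (edgeR adjusted p = 0.143, unadjusted p = 0.00227). In microglia-like sums 7 members could be fitted, of which 0 were called by edgeR and DESeq2, beside 0.324% and 0.471% of genes. An unadjusted p under 0.05 was reached by 1 member in either, beside 322 (edgeR) and 191 (DESeq2) of 3397 genes. Without the filter on low counts Nrp1 was called there (edgeR adjusted p = 0.0242), as were 0.928% of genes.

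Müller-like cells held 56.7% of all Nrp1 UMIs. Nrp1 was 49.9, 43.0 and 63.6 CPM there in OIR and 31.4, 41.1 and 45.4 CPM in Ctrl, and the groups overlapped (log2 fold change 0.36, SE 0.20, edgeR adjusted p = 0.426). Within the deep cluster it was 53.8, 50.1 and 76.3 CPM in OIR and 34.5, 47.8 and 49.9 CPM in Ctrl, and within the shallow cluster 25.7, 22.9 and 30.4 against 12.3, 15.1 and 19.6 CPM. Neither cluster overlapped between the groups, but in the deep cluster only by 50.1 CPM in OIR replicate 2 against 49.9 CPM in Ctrl replicate 3. Neither passed the test (edgeR adjusted p = 0.463 and 0.294). The split into clusters was made after the data were seen. The step from Müller-like down to amacrine-like cells (45.7 and 15.3 CPM) was the only one in the Nrp1 order without overlap.

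Nrp2 (chr1:62703285-62818695, plus strand), the coreceptor of VEGFC and of other class 3 semaphorins, lay mainly in cone bipolar-like cells, which held 73.7% of its UMIs. Its rows overlap a gene on the opposite strand, Gm29083, that is also counted. In cone bipolar-like cells Nrp2 was 33.6, 44.4 and 26.3 CPM in OIR and 44.7, 46.5 and 54.7 CPM in Ctrl. All OIR samples lay below all Ctrl samples, by a narrow gap between OIR replicate 2 and Ctrl replicate 1 (log2 fold change -0.52, SE 0.19, edgeR adjusted p = 0.264). In cone bipolar-like sums 0 of 9 members were called by edgeR and DESeq2, beside 0.822% and 1.15% of genes. An unadjusted p under 0.05 was reached by 2 members in edgeR and 1 in DESeq2, beside 1258 and 829 of 10346 genes. VEC-like cells (mean 61.0 CPM), microglia-like cells (44.3) and amacrine-like cells (40.7) had Nrp2 at levels that overlapped those of cone bipolar-like cells (41.7). The VEC-like value came from 8, 0 and 0 UMIs in OIR and 58, 6 and 10 UMIs in Ctrl.

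The remaining sums called no member either. In VEC-like sums 0 of 9 members were called by edgeR and DESeq2, beside 0.738% and 0.843% of 949 genes. An unadjusted p under 0.05 was reached by 0 members in either, beside 91 (edgeR) and 48 (DESeq2) of these genes. Simulated 2-fold changes were recovered in 1.5% and 16-fold changes in 94.5% of genes there. In amacrine-like sums 0 of 9 (0.0312% of genes), in RPE-like sums 0 of the 8 that could be fitted (0.0563%) and in all cells together 0 of 9 (0%) were called by edgeR, and 0 by DESeq2, which called 0.0937%, 0.0563% and 1.38% of genes there. At an unadjusted p under 0.05 edgeR had 0, 1 and 0 members in these sums, beside 187 of 3202, 97 of 1776 and 1188 of 15167 genes. DESeq2 had 0 members in each, beside 129, 35 and 1418 genes. The RPE-like member was Nrp2, on 0, 0 and 1 UMIs in OIR and 2, 7 and 1 in Ctrl. No test was run on VSMC-like or astrocyte-like sums, in which some samples had fewer than 10 cells.

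**Figure D4:**
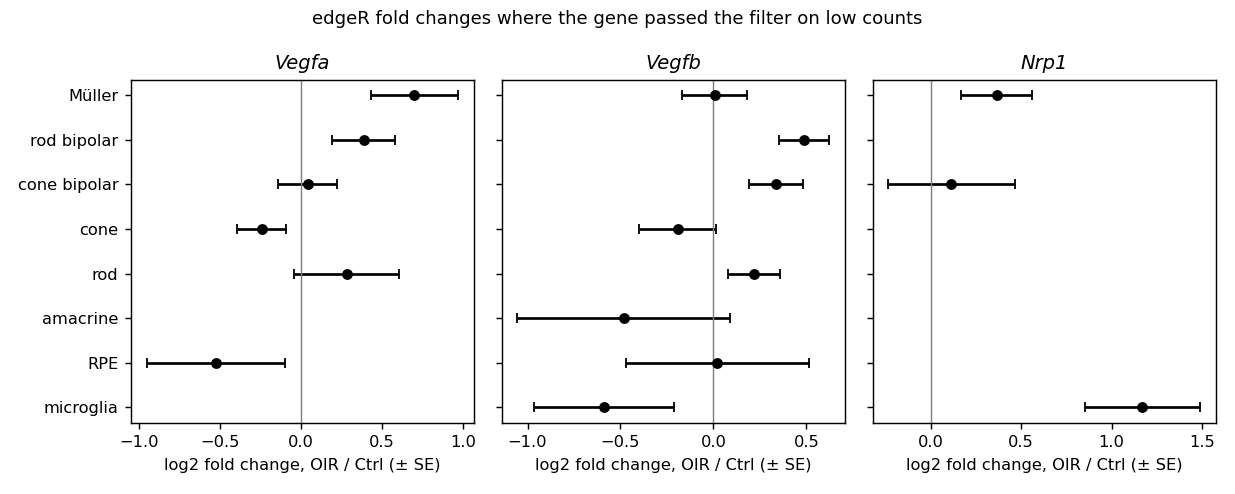
Log2 fold changes of OIR over Ctrl (points, bars ± 1 SE, edgeR) for Vegfa, Vegfb and Nrp1 in the classes where the gene passed the filter on low counts. VEC-like and all-cell sums, though tested, are not drawn. Vegfa lies at 0.70 in Müller-like and -0.24 in cone-like cells, Vegfb at 0.49 in rod bipolar-like cells and Nrp1 at 1.17 in microglia-like cells, none of them past the adjusted threshold.

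The share of UMIs that came from Müller-like cells was higher in every OIR sample than in every Ctrl sample for 4 of the 9 members. The same count was not made over all genes, so these counts do not set the members apart from genes in general. For Vegfa it was 74.8%, 68.9% and 68.4% in OIR against 40.7%, 58.0% and 63.9% in Ctrl. For Kdr it was 94.3%, 95.2% and 93.5% against 78.0%, 91.9% and 90.0%. For Flt1 it was 92.6%, 96.2% and 96.4% against 58.7%, 89.6% and 86.7%. In each of these genes Ctrl replicate 1 was the lowest sample, and the other Ctrl samples still lay below the OIR samples. For Nrp1 the share was 65.6%, 67.6% and 69.7% against 33.8%, 59.0% and 59.5%. The exact permutation test gave p = 0.1 for each, two-sided, which is the smallest that 3 against 3 samples allow. VEC-like cells held 37.5% of the Flt1 UMIs of Ctrl replicate 1, 9.0% and 9.9% in the other Ctrl samples and 0% to 4.6% in OIR, and Müller-like cells numbered 1040, 610 and 671 in OIR and 1028, 341 and 289 in Ctrl. The part that the numbers of VEC-like and Müller-like cells had in these shares was not tested. With rod-like cells left out of the total, Pgf joined these 4 (57.5% to 83.2% in OIR against 24.9% to 50.0% in Ctrl).

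**Figure D5:**
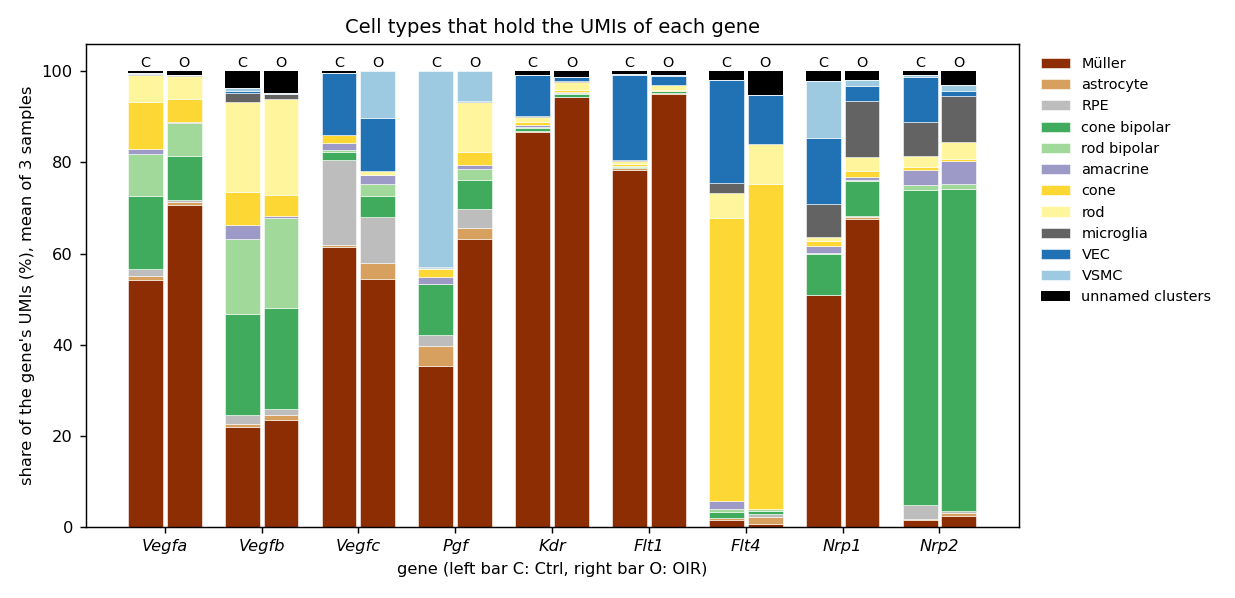
Share of each gene's UMIs (percent, mean of 3 samples) held by each cell class, left bar Ctrl and right bar OIR for every gene. Müller-like cells (brown) take 70.7% of Vegfa, 94.3% of Kdr and 95.1% of Flt1 in OIR against 54.2%, 86.6% and 78.3% in Ctrl, cone-like cells (yellow) take most of Flt4 and cone bipolar-like cells (green) most of Nrp2.

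The same fits were read for 4 lists of genes around the pathway. The lists were chosen with earlier results of these data known, so their counts and medians beside all genes are a description only. Of the hypoxia-responsive genes other than Vegfa, 5 of 12 tested rose in rod bipolar-like cells, 3 of 12 in cone bipolar-like, 4 of 14 in Müller-like and 2 of 8 in microglia-like cells, none fell, and 0 of 12 in rod-like and 0 of 11 in cone-like cells passed. Over all genes 1.26%, 0.512%, 1.58% and 0.294% rose in the 4 classes with calls. The medians over the list were log2 fold changes of 0.62, 0.47, 0.42 and 0.85 in the 4 classes with calls, beside -0.01 in each over all genes, and -0.28 in rod-like, -0.05 in cone-like, -0.32 in amacrine-like (0 of 7 called), -0.39 in VEC-like (0 of 4, where the median over all genes was -0.17) and 0.21 in RPE-like cells (0 of 4). Of these calls, Müller-like cells kept 1 of 4 without OIR replicate 1, Ctrl replicate 2 or Ctrl replicate 3, and 2 of 4 with the term for sex. Rod bipolar-like cells kept 3 of 5 without Ctrl replicate 2, cone bipolar-like cells 2 of 3 without OIR replicate 2, and microglia-like cells 0 of 2 without OIR replicate 1, without Ctrl replicate 2 or with the term for sex, and 1 of 2 without Ctrl replicate 1, without Ctrl replicate 3 or with a mitochondrial limit of 10%. Ndrg1, a stress-response gene, rose in rod bipolar-like cells (100.6, 125 and 107 CPM in OIR against 24.7, 23.1 and 27.3 in Ctrl, log2 fold change 2.10, SE 0.15). Egln1, an oxygen-sensing prolyl hydroxylase, rose there too (243, 237 and 172 against 88.6, 63.1 and 81.0 CPM, log2 fold change 1.43, SE 0.18). In cone bipolar-like cells the lowest p-values were those of Ndrg1 (1.27, SE 0.16) and of Bnip3, a mitophagy gene (1.10, SE 0.15).

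In Müller-like cells Bnip3 rose from 74.2, 104 and 104 CPM in Ctrl to 190, 196 and 190 CPM in OIR (log2 fold change 0.97, SE 0.16, edgeR adjusted p = 0.0132). Adm, the gene of the vasoactive peptide adrenomedullin, had 146, 71.0 and 11.4 CPM in OIR against 1.70, 0.381 and 2.91 CPM in Ctrl (log2 fold change 5.58, SE 0.97, edgeR adjusted p = 0.0176), with OIR replicate 1 far above the others, as for Vegfa. In microglia-like cells Mif, a cytokine gene, rose by a log2 fold change of 1.74 (SE 0.33, edgeR adjusted p = 0.0396) and Bnip3 by 2.24 (SE 0.44, 0.0459). All 3 OIR samples of each of these genes lay above all 3 Ctrl samples. Single samples or the term for sex decided some of these calls: the edgeR adjusted p of Müller-like Bnip3 was 0.0570 without OIR replicate 1, and that of Adm was 0.0728 without Ctrl replicate 2, 0.0647 without Ctrl replicate 3 and 0.0534 with the term for sex. Without OIR replicate 1 the edgeR adjusted p of Pgk1 and Egln3, the other list genes called in Müller-like cells, was 0.117 and 0.122, and without Ctrl replicate 2 that of Slc2a1 and Ldha in rod bipolar-like cells was 0.0880 and 0.0744, these 4 genes being named after their values were seen. The call of Mif was lost without OIR replicate 1 (0.102), Ctrl replicate 2 (0.0775) or Ctrl replicate 3 (0.122) and with the term for sex (0.179), and that of microglia-like Bnip3 without OIR replicate 1 (0.0861), Ctrl replicate 1 (0.132) or Ctrl replicate 2 (0.0691), with the term for sex (0.0517) and with the mitochondrial limit of 10% (0.0561).

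Of the genes that relay the receptor signal, 1 of 25 tested in Müller-like cells passed, a count near the 2.74% of all genes called there: Shb, an adaptor that binds activated Kdr, with 28, 15 and 13 UMIs in OIR and 3, 0 and 0 in Ctrl (log2 fold change 3.57, SE 0.63, edgeR adjusted p = 0.0199). The call of Shb was lost without OIR replicate 1 (0.0764), OIR replicate 2 (0.0532), OIR replicate 3 (0.0682), Ctrl replicate 2 (0.0703) or Ctrl replicate 3 (0.0626), and with the term for sex (0.0510). The median of its list was 0.10, beside -0.01 over all genes. Of the ligand relatives and processing enzymes, 1 of 5 passed in Müller-like cells, beside the same 2.74%: Plat, tissue plasminogen activator, with 169, 142 and 124 CPM in OIR and 65.4, 67.4 and 61.1 CPM in Ctrl (log2 fold change 1.10, SE 0.16, edgeR adjusted p = 0.00981). Of the listed class 3 semaphorins and plexins, 1 of 3 tested in rod bipolar-like cells passed, beside 2.40% of all genes. This was Sema3e, whose product acts through plexin D1. It fell from 42.5, 47.7 and 60.7 CPM in Ctrl to 18.6, 24.2 and 30.9 CPM in OIR (log2 fold change -1.09, SE 0.21, edgeR adjusted p = 0.0131). The call of Sema3e was lost without OIR replicate 2 (0.0826), Ctrl replicate 2 (0.0508) or Ctrl replicate 3 (0.0531), and with the term for sex (0.0761). In all other classes tested, and in all cells together, no gene of these 3 lists passed.

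The genes whose mean levels over the 11 classes ran most like each member are given as a description, with Pearson's r of log2(CPM + 1) among 11627 genes over classes that share libraries and depth. For Vegfa they were A730017C20Rik (r = 0.959), Pfn2 (0.953) and Sdsl (0.941). For Vegfb, Mt1 was nearest (0.929), for Vegfc Mansc1 (0.967) and for Pgf Col16a1 (0.966), a collagen gene highest in VSMC-like cells. For Kdr they were Prex2 (0.937), Apln (0.915), the gene of a peptide of sprouting endothelium, and Plk2 (0.884). For Flt1 they were Calcrl (0.965), the receptor gene through which adrenomedullin acts, Cav1 (0.938) and Ptpn14 (0.937). For Flt4, Klhl4 was nearest (0.841) and highest in cone-like cells, for Nrp1 Pmepa1 (0.929) and for Nrp2 Plxna4 (0.793), a plexin gene that was highest in cone bipolar-like cells as Nrp2 was in share.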

How the data were processed

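The deposited files hold raw UMI counts for each gene in each barcode, made by the authors with Cell Ranger (matrix header version 3.1.0) on mm10 per the labels, from 6 libraries of P17 mouse retina. Every barcode held at least 500 UMIs, so barcodes with fewer counts were not there to estimate free RNA from, and free RNA was not removed. Whether some of the barcodes were droplets without a cell was not tested. The 9 members and the gene lists were chosen with earlier results of these data known. Of 47631 barcodes, those with 500 to 5000 genes and up to 20% mitochondrial counts were kept, and the upper limit was the only step against doublets. Pairs of libraries shared 3 to 17 barcodes. OIR and Ctrl cells were integrated with Seurat 5.3.0 (canonical correlation, 2000 variable genes, 15 components, 20 neighbours, resolution 0.5), which gave 23 clusters. A total of 5 members were among the variable genes, and 97.6% of cells took the same name without the members. The 3 clusters left unnamed held 1542 cells.

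UMIs were summed per sample and class and tested across samples with edgeR 4.0.16 (quasi-likelihood, TMM, filterByExpr with members always kept). Calls needed a p adjusted over all genes tested (Benjamini-Hochberg) under 0.05 and a log2 change of 0.25 or more in either direction. Classes with at least 10 cells in every sample, VEC-like cells and all cells were tested. Differences of the OIR effect between classes were fitted as an interaction with the sample as a block. DESeq2 1.42.0 was an alternative, and the tests were tried on simulated data. Samples with the same replicate number in their titles deviated together (r above 0.1 in each of 3 pairs) in rod-like (0.499, 0.296 and 0.344), RPE-like and all-cell sums, and a block for that number called no member there, while genes called went from 289 to 1287, from 1 to 13 and from 0 to 242. Named genes were the members, the 2 list genes with the lowest p per class and direction, and the 3 genes most like each member. Intervals and floors (3 UMIs) cover counting error only. Gene positions are from GENCODE on GRCm38 and promoter windows from RefSeq on GRCm38.p6.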

Additional observations from a re-analysis of the deposited data

Results flagged for a closer look

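Of the results above, 1 was marked because the effect of OIR differed between cell classes by a test of the difference itself: Vegfa, whose OIR effect in cone-like cells minus that in Müller-like cells was -1.01 on the log2 scale (SE 0.22, edgeR interaction test, adjusted p = 0.0122). All 3 OIR samples of the cone-like class, at 78.1 to 100.4 CPM, lay below the highest Ctrl value of 109 CPM, and the Müller-like OIR samples, at 443 to 800.1 CPM, lay above 2 of the 3 Ctrl samples. The call was lost without OIR replicate 1, without Ctrl replicate 1 and with the deep Müller-like cluster alone. It is 1 of 8 class comparisons made for 9 genes.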

How the results depend on the processing

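Over 66 results and 655 alternatives no direction reversed, and 600 alternatives were marked as the same. For folds this meant the same side of the threshold, for levels and shares a move smaller than the SD, and for counts an equal or similar count. Only folds, the difference of the OIR effect and shares could be marked as reversed, while counts and levels could not. Folds of members in OIR against Ctrl were included only at an unadjusted p under 0.05 in the reported edgeR fit. Folds of list genes and the difference of the OIR effect were included only where called in that fit. Such a choice makes a reversal less likely. The count of members called in OIR against Ctrl rose from 0 to 1 in rod bipolar-like cells with the replicate number as a block (Vegfb, log2 fold change 0.49, adjusted p = 0.0364, with 531 genes called against 224) and with no filter on low counts in Müller-like cells (1, Vegfa, 0.72, adjusted p = 0.0458) and in microglia-like cells (1, Nrp1, 1.21, adjusted p = 0.0242). Same-numbered samples had r = 0.304, 0.0850 and 0.159 in the rod bipolar-like sums, the second below the 0.1 asked of each pair. In all-cell sums of the same libraries r was 0.670, 0.298 and 0.506. Whether the block belongs in the rod bipolar-like fit was not tested. The pairing changed no other call of a member. For the difference of the OIR effect from Müller-like cells, whose alternatives were chosen after the data were seen, the members called in cone-like cells fell from 1 to 0 without OIR replicate 1, without Ctrl replicate 1 and with the deep cluster only. The Vegfa difference there ran from -1.26 to -0.74 as single samples were left out and was -1.08 with the deep cluster only. The count rose from 0 to 1 for cone bipolar-like cells with no filter and with the shallow cluster only (Vegfa -0.73 and -1.03), and for amacrine-like cells without OIR replicate 1 (Vegfb -3.25). The cause was not tested. Left-out samples moved the fold of Vegfa in Müller-like cells from 0.37 to 0.95, of Nrp1 in microglia-like cells from 0.92 to 1.41, of Vegfb in rod bipolar-like cells from 0.44 to 0.53 and of Vegfc in Müller-like cells from -1.69 to -0.91.

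Genes called over all settings ran from 31 to 1287 in rod-like (289 in the reported fit, 607 with DESeq2), 57 to 319 in cone-like (121), 80 to 596 in rod bipolar-like (224), 21 to 485 in cone bipolar-like (85), 86 to 684 in Müller-like (319), 3 to 134 in microglia-like (11), 0 to 37 in amacrine-like (1), 0 to 13 in RPE-like (1), 2 to 86 in VEC-like sums (7) and 0 to 242 in all cells (0, or 209 with DESeq2). DESeq2 called 12 genes higher and 4 lower in microglia-like sums against 10 and 1. The class with the highest level was the same for 9 of 9 members without the members in the clustering and with cells of at least 1000 UMIs. It was the same for 8 with Cldn5-positive VEC-like cells only (Kdr then 591 CPM in VEC-like cells, OIR replicate 3 having none). With UMIs pooled it was the same for 7 (Vegfb in RPE-like, Nrp1 in VSMC-like cells). Depth limits VEC-like, VSMC-like and astrocyte-like values most, since some samples had 1 to 5 such cells.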

Other observations

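The clusters left without a name held few member UMIs. In the lens crystallin cluster Vegfa was 47.2, 13.9 and 17.5 CPM in OIR and 16.1, 4.07 and 18.9 CPM in Ctrl, and Kdr was 26.03, 15.3 and 35.1 CPM against 8.06, 15.5 and 22.1 CPM, with overlap for both. Another unnamed cluster (372 cells) was led by the neutrophil genes S100a8 and S100a9. Its best marker list was that of microglia and its second-best that of blood leukocytes, and it is not part of the microglia-like class above. Vegfb was 62.1, 86.3 and 80.6 CPM there in OIR and 34.5, 12.5 and 52.8 CPM in Ctrl, without overlap and without a test. Vegfd, the ligand gene nearest to Vegfc, had 41 UMIs in the kept cells, of which VEC-like cells held 1, 0 and 0 in OIR and 17, 1 and 0 in Ctrl.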
